A study of Homo sapiens with 15 samples.

Results

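The genes described here are 48 genes of the cytosolic and mitochondrial protein folding machinery around HSP70, taken by symbol from the 2 deposited expression tables of a study on HSP90 isoforms in leukemia cells. They comprise the heat shock factor genes HSF1 and HSF2 with the factor-binding gene HSBP1, 10 HSP70 (HSPA) genes, the HSP110 gene HSPH1, 11 J-domain (DNAJ, HSP40) genes, 4 small heat shock protein genes, 6 BAG genes, the HSP70 partners STUB1, ST13 and HSPBP1, the 8 subunit genes of the cytosolic chaperonin CCT, and HSPD1 and HSPE1, which encode the mitochondrial chaperonin HSP60 and its lid HSP10. All 48 have a row in the resistance table, which holds 60510 genes, and 44 were analysed in the knockout table, which holds 17769. HSPA1B, HSPA2, HSPA12A and HSPB8 were not analysed there.

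K562, an established human chronic myeloid leukemia cell line that carries BCR-ABL1, was the only cell type. The knockout table holds 3 libraries each of empty vector control (EV, genotype WT), HSP90 alpha KO (HSP90α-KO, guide against HSP90AA1) and HSP90 beta KO (HSP90β-KO, guide against HSP90AB1) cells, none of them treated, which had received CAS9 by lentivirus, were sorted by a fluorescent marker and were grown from single cells. The resistance table holds 3 libraries each of cells labelled WT and kept long term in the solvent DMSO (parental) and of cells, also labelled WT, kept long term in rising amounts of PUH71 (PU-H71, an HSP90 inhibitor), named PUHr, both picked as clones. Clone and condition cannot be told apart in either table. The study calls its sequencing replicates independent, and whether they are separate cultures of the same clone is not given in the sources used here, so that the p-values measure the spread between these libraries.

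The libraries held 19594381 to 26216730 reads assigned to genes. Levels are given in CPM, the reads of a gene scaled by the size of its library after the authors' normalization. As means of 3 libraries, HSP90AA1 was at 90.4 CPM in HSP90α-KO against 704 CPM in EV and 1206 CPM in HSP90β-KO. HSP90AB1 was at 1913 CPM in HSP90β-KO against 2806 CPM in EV and 3307 CPM in HSP90α-KO. Both targeted transcripts were thus lowest under their own label. All 10 erythroid marker genes used to check the K562 label were detected, with a sum of 910 to 920 CPM in EV, 855 to 876 in HSP90α-KO, 797 to 819 in HSP90β-KO, 2825 to 2850 in parental and 2123 to 2222 in PUHr cells. Of the lists for other cell types, the summed stroma or epithelium genes (3 of 4 analysed in the knockout table) were at 112 to 114 CPM in EV, 157 to 162 in HSP90α-KO, 94.9 to 98 in HSP90β-KO, 232 to 234 in parental and 155 to 167 in PUHr cells. The T cell genes (3 of 5 in the knockout table) were at 8.18 to 9, 3.66 to 4.56, 17 to 18.9, 10.6 to 10.8 and 7.94 to 8.59 CPM in the same order, with CD8A at 0 in parental and CD2 at 0 in PUHr cells. The B cell genes summed to at most 7.18 CPM, with MS4A1 at 0 reads in the resistance table, and the monocyte genes, analysed only there, to at most 0.667 CPM. The part of these differences in the results on chaperone genes was not tested. PUHr replicate 2 stood apart from the other PUHr libraries, with a chi-square per degree of freedom of 4.23 and 3.24 against them. Between replicates 1 and 3 it was 1.57. EV replicate 2, in the control of both knockouts, was at 2.80 and 2.14 against the other EV libraries, beside 1.41 between replicates 1 and 3. The pairs of HSP90α-KO libraries were at 2.68 to 3.18 and those of HSP90β-KO at 1.15 to 1.44.

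Heat shock factor HSF1 is held inactive by chaperones in unstressed cells, forms trimers when unfolded proteins accumulate, and binds heat shock elements, arrays of inverted GAA repeats, in front of chaperone genes. HSP70 proteins bind unfolded stretches in a cycle of ATP hydrolysis. J-domain proteins deliver the substrate and start the hydrolysis, while HSP110 and BAG proteins release the nucleotide, and clients can then be passed to HSP90 or to the chaperonins, closed chambers in which proteins such as actin and tubulin (CCT) or mitochondrial matrix proteins (HSP60) fold.

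Per length of the main transcript (MANE Select), HSPD1 and HSPA8, the gene of the constitutive HSP70 HSC70, had the highest levels of the 44 members in EV, with 406 and 349 CPM per kb, ahead of CCT3 with 299. In HSP90β-KO the order began with CCT3 (311 CPM per kb), HSPD1 (280) and HSPB1 (247), and HSPA8 stood at rank 6 with 225. In parental cells HSPA8 led with 1257 CPM per kb and HSPD1 followed with 625. HSPA1A, the gene of the classical stress-inducible HSP70, was at 0.466 CPM per kb in EV, rank 42 of 44. All 44 members together held 0.837% to 0.860% of the reads in EV, 0.883% to 0.910% in HSP90α-KO and 0.830% to 0.836% in HSP90β-KO. In the resistance table the 48 members held 1.32% in parental and 1.27% to 1.28% in PUHr cells. After the authors' normalization the deposited values of a library, on the CPM scale, summed to between 977552 and 1032482. These sums include a small constant added to every value, which the CPM in the text leaves out. CPM is thus no exact share of the reads. A CPM value is relative to the rest of its library, so that fewer cells expressing a gene and less RNA of it per cell cannot be told apart.

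The genes were matched to RefSeq promoters (GRCh38.p14, 250 bases before to 50 bases after the start), of which 41 members had at least 1, with 59 windows in all. A 3-unit heat shock element was searched for as TTCNNGAANNTTC or GAANNTTCNNGAA, which are each other's reverse complement, so that both strands were covered. It occurred in 172 of 35116 promoters (0.49%) and in 5 of the 59 windows (8.47%), those of HSPA6, HSPA8, DNAJA1, DNAJB6 and the second window of HSPD1. These 5 are printed because their genes are followed through the comparisons below, with the 3-unit element in capitals and the plus or minus strand read 5′ to 3′.
HSPA6, chr1:161524290-161524589, plus strand: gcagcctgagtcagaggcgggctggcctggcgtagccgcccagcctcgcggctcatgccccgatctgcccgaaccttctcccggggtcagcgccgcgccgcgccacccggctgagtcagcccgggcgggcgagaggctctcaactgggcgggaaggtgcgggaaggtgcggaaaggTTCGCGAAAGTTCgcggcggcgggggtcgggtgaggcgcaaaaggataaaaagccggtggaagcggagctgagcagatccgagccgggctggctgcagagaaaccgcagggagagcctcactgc
HSPA8, chr11:123062087-123062386, minus strand: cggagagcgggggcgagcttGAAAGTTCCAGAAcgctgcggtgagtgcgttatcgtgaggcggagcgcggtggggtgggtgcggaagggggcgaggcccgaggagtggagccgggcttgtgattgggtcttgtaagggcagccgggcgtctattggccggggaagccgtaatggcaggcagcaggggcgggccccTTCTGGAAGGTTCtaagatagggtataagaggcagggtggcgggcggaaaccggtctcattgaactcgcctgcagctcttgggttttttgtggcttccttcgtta
DNAJA1, chr9:33025023-33025322, plus strand: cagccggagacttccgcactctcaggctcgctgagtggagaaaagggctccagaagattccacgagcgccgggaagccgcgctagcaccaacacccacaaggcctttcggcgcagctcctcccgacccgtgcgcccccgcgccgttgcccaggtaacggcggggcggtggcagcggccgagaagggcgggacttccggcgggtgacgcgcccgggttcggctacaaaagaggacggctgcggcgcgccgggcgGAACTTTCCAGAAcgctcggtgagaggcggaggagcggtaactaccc
DNAJB6, chr7:157336754-157337053, plus strand: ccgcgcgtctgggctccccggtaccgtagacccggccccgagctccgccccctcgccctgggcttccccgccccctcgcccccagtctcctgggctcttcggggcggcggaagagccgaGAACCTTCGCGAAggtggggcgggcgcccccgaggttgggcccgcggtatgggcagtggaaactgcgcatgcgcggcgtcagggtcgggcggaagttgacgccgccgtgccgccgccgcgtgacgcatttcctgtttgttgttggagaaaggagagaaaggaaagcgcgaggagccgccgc
HSPD1, chr2:197499791-197500090, minus strand: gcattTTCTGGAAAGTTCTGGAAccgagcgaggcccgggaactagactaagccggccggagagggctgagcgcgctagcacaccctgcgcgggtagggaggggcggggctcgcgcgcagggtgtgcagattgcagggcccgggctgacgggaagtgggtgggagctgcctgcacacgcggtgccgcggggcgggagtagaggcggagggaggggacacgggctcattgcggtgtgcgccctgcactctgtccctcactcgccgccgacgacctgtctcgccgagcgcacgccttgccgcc
Counted from the start, the element ran from -74 to -62 in HSPA6, from -230 to -218 and from -55 to -43 in HSPA8, from -131 to -119 in DNAJB6 and from 3 to 15 in DNAJA1. In HSPD1 a pair of elements overlapped, at -245 to -233 and -240 to -228. A shorter 2-unit element (TTCNNGAA or GAANNTTC, contained in the longer one) occurred in 13.5% of all promoters and in 19 of the 59 windows (32.2%). The promoter of HSPA1A holds only the shorter form, in capitals here.
HSPA1A, chr6:31815293-31815592, plus strand: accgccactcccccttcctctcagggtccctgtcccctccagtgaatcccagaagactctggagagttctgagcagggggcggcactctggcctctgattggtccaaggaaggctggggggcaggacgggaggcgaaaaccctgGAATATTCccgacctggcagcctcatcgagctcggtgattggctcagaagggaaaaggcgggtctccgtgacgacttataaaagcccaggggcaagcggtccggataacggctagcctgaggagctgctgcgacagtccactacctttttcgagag

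The first question was how these genes differ in cells without HSP90β and in cells without HSP90α, both set against the same EV libraries. In HSP90β-KO, 4 of 7 HSP70 genes and 6 of 11 J-domain genes were lower than in EV while 6 of 8 CCT subunits and BAG5 were higher. Of all tested genes 17.2% were lower and 17.2% higher. The calls of HSPA9, DNAJB4 and CCT6A among these members were lost without single libraries. Of 30 other J-domain genes tested, 2 were lower and 8 higher in HSP90β-KO. BAG5 (log2 fold change 0.68) and DNAJB2 (-0.44) lay among genes within 5 Mb that had medians of 0.59 and -0.50. In HSP90α-KO most differences were small rises, an excess that depended on the scaling (13 members higher and 10 lower with quantile normalization). CRYAB and DNAJB5 alone passed 2-fold there. A gene was counted as past the test with an adjusted p under 0.05 (limma, Benjamini-Hochberg over all tested genes) and as changed when its log2 fold change was also beyond 1 in either direction.

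Of the 44 members, 3 were changed in HSP90β-KO, where 4.48% of the 17039 tested genes were changed, namely HSPA6, HSPA1A and CRYAB, all lower. Past the test were 27 members (61.4%), 14 higher and 13 lower, against 34.4% of all tested genes (17.2% higher and 17.2% lower) and 43.9% of abundant genes, those whose log2 CPM averaged at least 5. Of the abundant members 20 of 35 passed (57.1%). The libraries of the groups did not overlap for 32 members, 18 above and 14 below EV (72.7%, against 46.6% of all genes). In HSP90α-KO 2 members were changed, with 10.3% of all genes as the background. Past the test were 32 members (72.7%), 23 higher and 9 lower, against 54.2% of all genes (27.5% higher and 26.6% lower) and 66.2% of the abundant genes, and of the abundant members 28 of 34 passed (82.4%). The groups did not overlap for 29 members, 20 above and 9 below EV (65.9%, against 57.3%). The median log2 fold change of the members was 0.06 in HSP90β-KO and 0.07 in HSP90α-KO, beside 0.00 and -0.01 over all tested genes. With quantile normalization the members past the test in HSP90α-KO were 13 higher and 10 lower.

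HSF1, the main factor of the heat shock response, was at 109, 117 and 109 CPM in EV, 125, 114 and 107 in HSP90α-KO and 107, 109 and 112 in HSP90β-KO. The 3 groups overlapped, with log2 fold changes of 0.05 (adjusted p = 0.37) and -0.03 (adjusted p = 0.67). HSF2, a second factor that can pair with HSF1, was at 38.2, 35.6 and 34.3 CPM in EV, 30.3, 30.8 and 32.8 in HSP90α-KO and 39.4, 37.7 and 38.8 in HSP90β-KO. All 3 HSP90α-KO libraries lay below EV (log2 fold change -0.20, standard error 0.05, limma adjusted p = 0.0015), and the HSP90β-KO libraries overlapped with EV. HSBP1, whose product binds trimers of the factor, fell in HSP90α-KO (-0.23) and rose in HSP90β-KO (0.14).

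Of the 7 HSP70 genes, 4 fell (57.1%) and 1 rose in HSP90β-KO, against 17.2% of all tested genes in each direction, and 2 fell and 3 rose in HSP90α-KO (28.6% and 42.9%, against 26.6% and 27.5%). HSPA8, which had the highest level of the HSP70 genes per length in every group, moved in opposite directions in the knockouts. It was at 792, 769 and 811 CPM in EV, at 891, 898 and 948 CPM in HSP90α-KO and at 510, 499 and 522 CPM in HSP90β-KO. No group overlapped with another, and HSPA8 fell by 0.63 on the log2 scale in HSP90β-KO (standard error 0.03, limma adjusted p = 2.7e-15) and rose by 0.21 in HSP90α-KO (adjusted p = 1.6e-06). The direct comparison of both knockouts gave a difference of 0.84 (HSP90α-KO over HSP90β-KO, adjusted p = 8.5e-19).

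HSPA6, a strictly stress-inducible HSP70 gene, was at 17.1, 17.2 and 16.2 CPM in EV, at 12.4, 12.0 and 10.4 CPM in HSP90α-KO and at 4.39, 3.58 and 4.43 CPM in HSP90β-KO. All libraries of both knockouts lay below EV, and those of HSP90β-KO below all others. The log2 fold changes were -2.01 in HSP90β-KO (standard error 0.09, limma adjusted p = 2.9e-15) and -0.54 in HSP90α-KO (adjusted p = 2.6e-05). HSPA1A was counted with 29, 18 and 29 reads in EV, 17, 18 and 16 in HSP90α-KO and 8, 7 and 8 in HSP90β-KO. It fell in HSP90β-KO (log2 fold change -1.498, standard error 0.26, adjusted p = 4.1e-05), while HSP90α-KO overlapped with EV (-0.32, adjusted p = 0.30). Of all stretches of 76 bases, the read length, in the HSPA1A transcript 73.7% occur elsewhere in the genome, as do 43.1% of those in HSPA6, so that the reads assigned to both genes depend on how shared reads were counted.

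In HSP90β-KO the other HSP70 genes moved less. HSPA9, the mitochondrial HSP70 mortalin, rose in HSP90α-KO (0.26, adjusted p = 3.9e-09) and fell by 0.07 in HSP90β-KO, a call that was lost without any of 5 single libraries (adjusted p up to 0.14). HSPA4L, an HSP110-type gene, was at 53.0, 49.7 and 54.9 CPM in EV, 35.4, 40.7 and 39.4 in HSP90α-KO and 64.5, 62.7 and 62.0 in HSP90β-KO. It lay below EV in every HSP90α-KO library (-0.45, adjusted p = 2.1e-08) and above it in every HSP90β-KO library (0.26, adjusted p = 0.00013). Its paralog HSPA4 rose in HSP90α-KO (0.17) and was at 0.07 in HSP90β-KO (adjusted p = 0.082), and HSPA14, a ribosome-associated HSP70, passed neither test. HSPH1, the main cytosolic HSP110, was at 95, 91.1 and 93.4 CPM in EV, 82.5, 83.9 and 90.6 in HSP90α-KO and 98.2, 97.1 and 94.1 in HSP90β-KO. It lay below EV in HSP90α-KO (-0.12, adjusted p = 0.00995, and 0.054 without HSP90α-KO replicate 1) and overlapped with EV in HSP90β-KO. The summed level of the 7 HSP70 genes was 2099 ± 46.4 CPM (SD, n = 3) in EV, 2414 ± 50.4 in HSP90α-KO and 1783 ± 8.92 in HSP90β-KO.

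**Figure D1:**
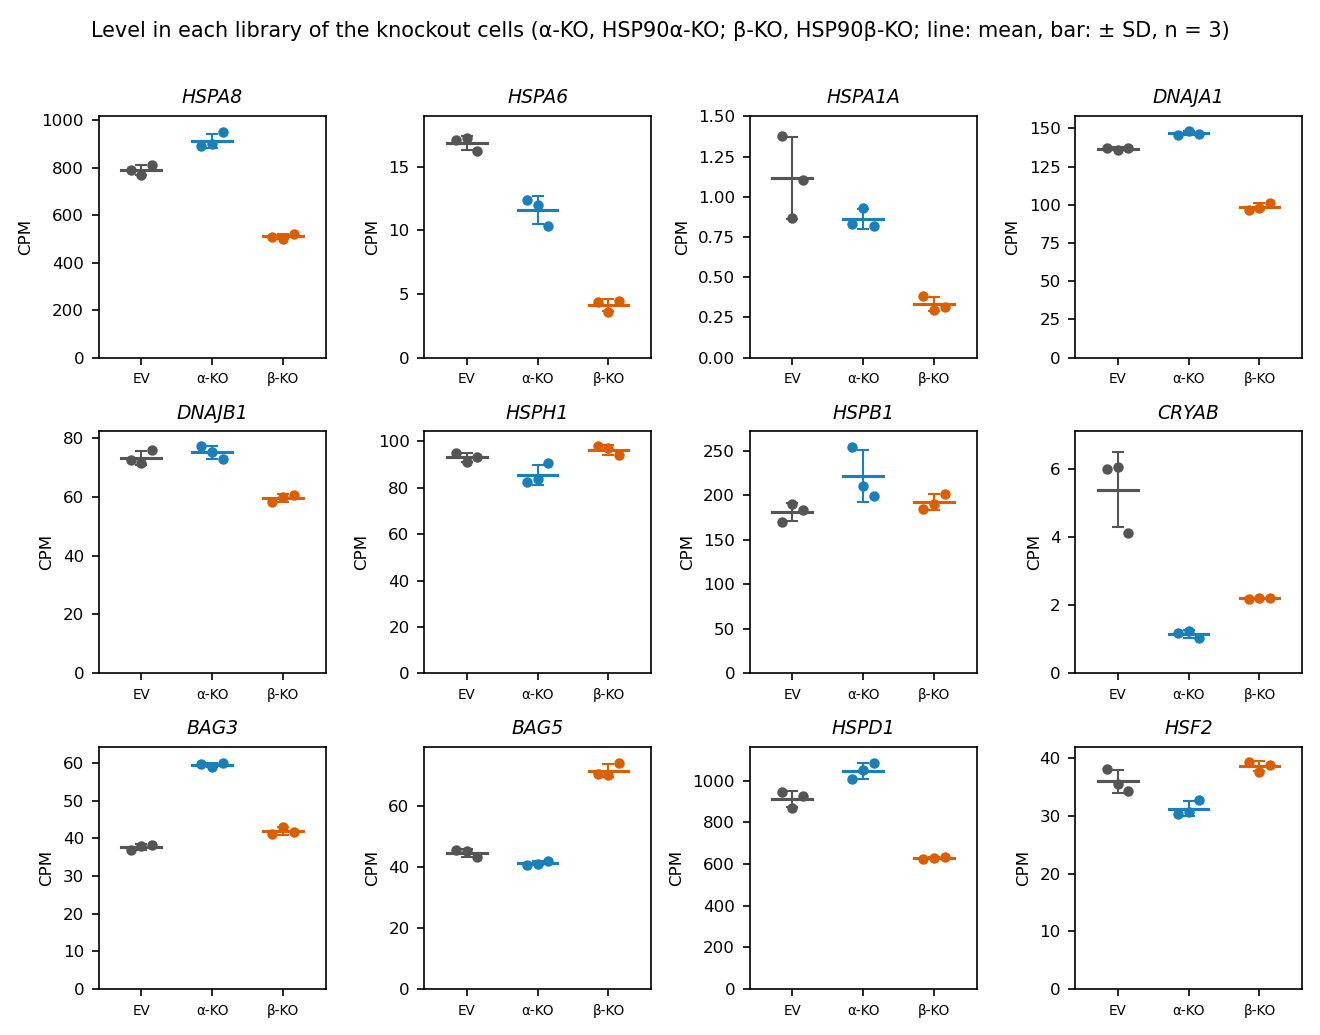
CPM of 12 members in each of the 9 knockout table libraries, with the mean as a line and the SD as a bar (n = 3 per group). HSPA8, HSPA6, HSPA1A, DNAJA1, DNAJB1 and HSPD1 are lowest in every HSP90β-KO library, CRYAB is lowest in HSP90α-KO, BAG3 is highest in HSP90α-KO (58.9 to 59.9 CPM) and BAG5 in HSP90β-KO (70.5 to 74.2 CPM).

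Of the 11 J-domain genes, 6 fell and 1 rose in HSP90β-KO, beside 1 that fell and 5 that rose in HSP90α-KO. These are 54.5% lower and 9.09% higher in HSP90β-KO, against 17.2% of all tested genes in each direction, and 9.09% lower and 45.5% higher in HSP90α-KO, against 26.6% and 27.5%. The 30 other J-domain genes tested went differently, with 2 lower and 8 higher in HSP90β-KO and 8 lower and 7 higher in HSP90α-KO. DNAJA1, a farnesylated cytosolic partner of HSC70, was at 138, 136 and 137 CPM in EV, 146, 148 and 147 in HSP90α-KO and 96.9, 98.1 and 102 in HSP90β-KO. The 3 groups did not overlap, and it fell by 0.47 on the log2 scale in HSP90β-KO (standard error 0.03, limma adjusted p = 6.9e-12) and rose by 0.10 in HSP90α-KO (adjusted p = 0.0092). DNAJB1, the stress-inducible HSP40, was at 72.4, 71.4 and 75.9 CPM in EV, 77.3, 75.2 and 72.7 in HSP90α-KO and 58.1, 60.0 and 60.7 in HSP90β-KO. Only its HSP90β-KO libraries stood apart from EV (-0.30, adjusted p = 1.15e-06), and in HSP90α-KO the fold change was 0.04 (adjusted p = 0.46).

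DNAJB2, a neuronal J-domain protein with ubiquitin-binding motifs, fell in HSP90β-KO (-0.44), as did DNAJA2 (-0.15), DNAJB4 (-0.19) and DNAJB6 (-0.12), whose product suppresses aggregation. DNAJC2, which acts at the ribosome, rose in both knockouts (0.17 in HSP90α-KO and 0.22 in HSP90β-KO). DNAJB5 was counted with 9, 8 and 15 reads in EV, 29, 20 and 20 in HSP90α-KO and 6, 15 and 12 in HSP90β-KO, and rose in HSP90α-KO (1.18, standard error 0.29, adjusted p = 0.0011). In HSP90α-KO DNAJB6 fell (-0.20) and DNAJA3, the mitochondrial J-domain protein, rose (0.16), as did DNAJB4 (0.20), whose call in both knockouts was lost without single libraries (adjusted p up to 0.12 and 0.21). DNAJA4 was at -0.60 in HSP90β-KO with an adjusted p of 0.063, and DNAJC7, a partner of both HSP70 and HSP90, passed neither test.

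The small heat shock protein CRYAB (αB-crystallin), a holder of unfolded proteins, was the member with the largest fold change. It was at 5.99, 6.07 and 4.12 CPM in EV, at 1.17, 1.24 and 1.03 in HSP90α-KO and at 2.19, 2.22 and 2.22 in HSP90β-KO. Both knockouts lay below EV in every library, and HSP90α-KO below HSP90β-KO. CRYAB fell by 2.13 on the log2 scale in HSP90α-KO (standard error 0.17, limma adjusted p = 3.2e-11) and by 1.23 in HSP90β-KO (adjusted p = 1.6e-06). HSPB1 (HSP27) was at 170, 190 and 183 CPM in EV, 254.6, 210 and 199 in HSP90α-KO and 185, 190 and 202 in HSP90β-KO. It rose in HSP90α-KO by 0.28 (adjusted p = 0.00015), with 1 library above the other two and a value of 0.18 without it, and overlapped with EV in HSP90β-KO (0.09, adjusted p = 0.26). HSPB11, an intraflagellar transport protein despite its name, rose in both (0.26 and 0.21).

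BAG3, a nucleotide exchange factor that links HSP70 to small heat shock proteins and autophagy, was at 36.8, 38.1 and 38.1 CPM in EV, 59.8, 58.9 and 59.9 in HSP90α-KO and 41.1, 43.1 and 41.8 in HSP90β-KO. It rose by 0.66 in HSP90α-KO (standard error 0.04, limma adjusted p = 5.3e-13) and by 0.16 in HSP90β-KO (adjusted p = 0.0053). BAG5, which has several BAG domains, was at 45.7, 45.3 and 43.3 CPM in EV, 40.9, 41.0 and 42.1 in HSP90α-KO and 70.6, 70.5 and 74.2 in HSP90β-KO. Its HSP90β-KO libraries stood above all others (0.68, adjusted p = 8.0e-13), and its HSP90α-KO value was -0.11 (adjusted p = 0.026, and up to 0.086 without single libraries). BAG4 was at 33.6, 32 and 32.7 CPM in EV, 37.6, 39.5 and 42.1 in HSP90α-KO and 35.3, 35.8 and 36.5 in HSP90β-KO, with 0.28 in HSP90α-KO (adjusted p = 3.2e-05) and 0.13 in HSP90β-KO (adjusted p = 0.041, up to 0.13 without single libraries).

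BAG1 fell (-0.15) and BAG2 (0.19) and BAG6 (0.14, adjusted p = 0.0039, and 0.050 without EV replicate 1) rose in HSP90α-KO, and none of the 3 passed the test in HSP90β-KO. STUB1 (CHIP), the ubiquitin ligase of HSP70 clients, was at 22.7, 23.8 and 23.4 CPM in EV, 22.8, 20.8 and 20.5 in HSP90α-KO and 28.04, 27.5 and 30.4 in HSP90β-KO. It lay above EV in all HSP90β-KO libraries (0.30, adjusted p = 0.00024) and overlapped with EV in HSP90α-KO (-0.13, adjusted p = 0.068). Of the exon bases of STUB1 52.2% are shared with JMJD8 on the opposite strand. Genes on the opposite strand also share 52.7% of those of CCT5, 44.2% of BAG2, 31.4% of DNAJC2 and 27.6% of DNAJC7. The study made its libraries with a stranded kit, but the strand setting of the counting is not given in the sources used here. HSPE1 shares 34.5% of its exon bases with HSPE1-MOB4 on the same strand, and 34.9% of the 76-base stretches of ST13 and 21.6% of those of DNAJB6 occur elsewhere in the genome. ST13 (HIP), which holds HSP70 in its substrate-bound state, rose in HSP90α-KO (0.11) and was at -0.02 in HSP90β-KO (adjusted p = 0.63), and HSPBP1, an exchange factor, passed neither test.

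The CCT subunits, all abundant genes, differed by little. In HSP90β-KO 75% of them passed the test, against 43.9% of all abundant genes, and in HSP90α-KO 87.5%, against 66.2%. In HSP90β-KO 6 of 8 rose, from 0.10 for CCT6A and 0.11 for CCT4 to 0.23 for TCP1 (adjusted p = 3.65e-06), and CCT3 and CCT8 were at 0.06 and 0.02 (adjusted p = 0.072 and 0.60), with all 8 above 0 under every scaling tried except CCT8 under median centring (-0.02), which also ended the calls of CCT4 and CCT6A. In HSP90α-KO 7 of 8 passed the test with rises between 0.07 (CCT3, CCT6A) and 0.12 (CCT7), CCT2 was at -0.01, and quantile normalization turned CCT3, CCT4, CCT5 and CCT6A to values between -0.04 and 0.00 ended the calls of TCP1, CCT7 and CCT8 and put CCT2 at -0.09 (adjusted p = 0.0073). The calls of CCT3, CCT6A, CCT8 and TCP1 in HSP90α-KO were also lost without single libraries, with adjusted p-values up to 0.21, as was that of CCT6A in HSP90β-KO without EV replicate 2 (0.056). The sum of the 8 genes was 3353 ± 51.5 CPM (SD, n = 3) in EV, 3532 ± 57.8 in HSP90α-KO and 3636 ± 17.9 in HSP90β-KO. As a share of all reads it was 0.332% to 0.341% in EV and 0.336% to 0.352% in HSP90α-KO, which overlapped. In HSP90β-KO that share was 0.370% to 0.374%.

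**Figure D2:**
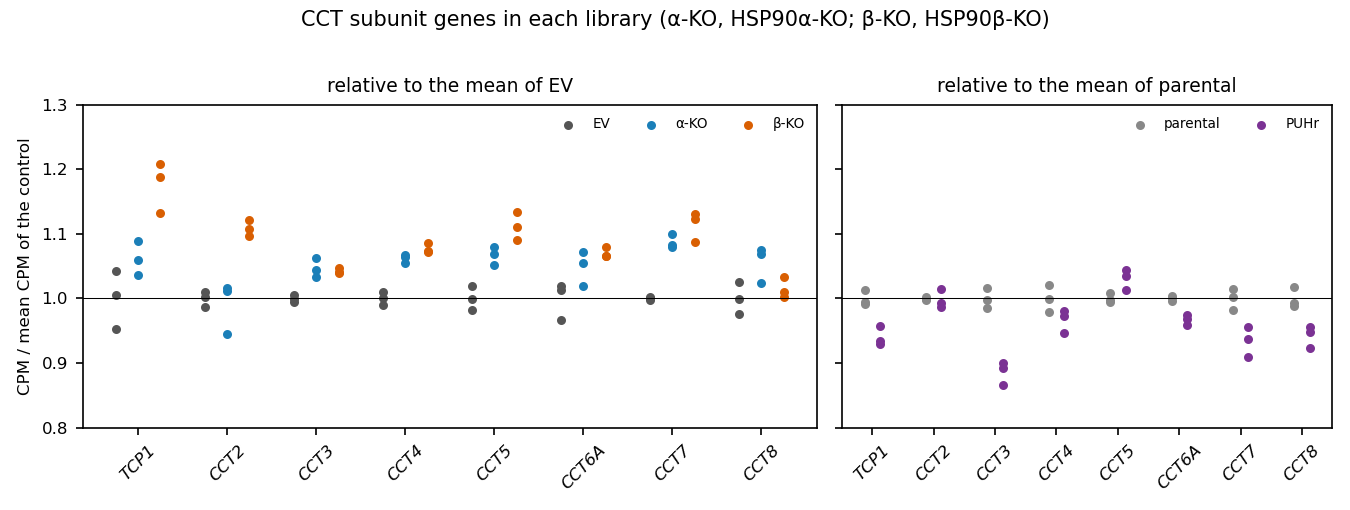
CPM of each CCT subunit gene in each library divided by the mean of the control group, EV for the knockouts (left) and parental cells for PUHr (right). The 3 points per group are the libraries; TCP1 in HSP90β-KO and CCT3 in PUHr lie farthest from 1, and quantile normalization turns CCT3, CCT4, CCT5 and CCT6A in HSP90α-KO and TCP1, CCT2 and CCT8 in PUHr to the other side of it.

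HSPD1 was at 944, 868 and 925 CPM in EV, 1008, 1050 and 1083 in HSP90α-KO and 625, 628 and 633 in HSP90β-KO. The groups did not overlap, with a rise of 0.20 in HSP90α-KO (limma adjusted p = 5.4e-06) and a log2 fold change of -0.54 in HSP90β-KO (standard error 0.03, adjusted p = 1.9e-13). HSPE1, its partner, was at 28.1, 26.8 and 28.2 CPM in EV, 22.3, 28.2 and 27.7 in HSP90α-KO and 21.5, 21.9 and 21.0 in HSP90β-KO. It fell in HSP90β-KO (-0.37, adjusted p = 0.00011) and overlapped with EV in HSP90α-KO (-0.10, adjusted p = 0.24). Of the 76-base stretches of the HSPD1 and HSPE1 transcripts 20.4% and 21.0% occur elsewhere in the genome.

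Several of these differences lay in stretches of a chromosome that differed as a whole. In HSP90β-KO the 58 tested genes within 5 Mb of HSPD1 on chromosome 2 had a median log2 fold change of -0.57, beside -0.54 for HSPD1 and -0.37 for HSPE1, which start at nearly the same place on opposite strands. The 63 neighbours of DNAJB2, on the same chromosome, had a median of -0.50, beside -0.44 for DNAJB2. On chromosome 14 the 78 neighbours of BAG5 had a median of 0.59, beside 0.68 for BAG5, and HSP90AA1 lies on the same chromosome with 0.78 beside the same median. In HSP90α-KO the 45 neighbours of BAG3 on chromosome 10 had a median of 0.54, beside 0.66 for BAG3. The part of these stretches in the values of the 5 members was not tested.

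For the members with the other large differences the neighbours lay near 0. In HSP90β-KO the medians were -0.05 for HSPA8 (104 genes), 0.03 for DNAJA1 (86), 0.02 for DNAJB1 (252), -0.04 for HSPA6 (105), 0.04 for HSPA1A (176) and 0.09 for CRYAB (45). In HSP90α-KO that of CRYAB was -0.02. The difference of these 6 members from their own neighbours in HSP90β-KO ran from -0.31 for DNAJB1 to -1.98 for HSPA6 on the log2 scale.

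The genes whose promoters hold the 3-unit element, printed above, were all lower in HSP90β-KO (HSPA6 -2.01, HSPA8 -0.63, HSPD1 -0.54, DNAJA1 -0.47 and DNAJB6 -0.12). Medians of the genes within 5 Mb were -0.57 for HSPD1, -0.05 for HSPA8, 0.03 for DNAJA1, -0.04 for HSPA6 and 0.04 for DNAJB6. HSPD1 thus lay at the level of its stretch. In HSP90α-KO HSPA8, HSPD1 and DNAJA1 rose and HSPA6 and DNAJB6 fell, and of the 41 other genes 34.1% were higher and 24.4% lower, beside 31.9% and 26.6% of the genes with a promoter. Among the 41 tested genes with such a promoter that are no members, 9 were higher and 8 lower in HSP90β-KO (22% and 19.5%), beside 20.5% and 18.2% of the 10921 tested genes with a promoter in the table, and their median log2 fold change was 0.01. A match of letters is a description and no sign of binding.

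Set directly against each other, the knockouts differed by more than 2-fold in HSPA6 (1.47, HSP90α-KO over HSP90β-KO), DNAJB5 (1.20) and HSPA1A (1.17), so that 3 of 44 members were changed, where 12.7% of all tested genes were. Past the test were 31 members, 19 higher and 12 lower in HSP90α-KO, with 59.9% of all genes as the background (30.1% higher and 29.8% lower) and 72.0% of the abundant ones. Of the abundant members 22 of 34 passed (64.7%). With quantile normalization 15 members were higher and 17 lower. The groups did not overlap for 32 members (72.7%, against 63.8% of all genes). All 7 HSP70 genes analysed passed this test, 5 of them higher in HSP90α-KO (also HSPA8 0.84, HSPA9 0.33 and HSPA4 0.10) and HSPA4L (-0.71) and HSPA14 (-0.25) lower. Of the J-domain genes 7 were higher and 1 lower in HSP90α-KO, beside 5 higher and 12 lower of 30 other J-domain genes tested. HSPD1 (0.74) and HSPE1 (0.27) were higher. BAG5 (-0.79), STUB1 (-0.42), HSBP1 (-0.37) and HSF2 (-0.30) were lower. The genes within 5 Mb of HSPD1 and of HSPE1 had medians of 0.74 here, and those of BAG5 -0.66. DNAJB2 was at 0.32 beside a median of 0.59, and BAG3 at 0.50 beside 0.52. For STUB1, HSBP1 and HSF2 the medians were -0.12, -0.02 and -0.06. The part of these stretches was not tested. Among the CCT subunits CCT2 (-0.16) and TCP1 (-0.15) passed the test, and CCT3 was at 0.01 and at -0.11 (adjusted p = 9.7e-05) with quantile normalization.

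The second question was how the same genes stand in cells that had become resistant to PU-H71. Here the heat shock factor genes and HSPB1 were higher and HSPA8, BAG3 and the mitochondrial chaperonin pair lower than in parental cells, although the call of HSF1 was lost without any of 3 single libraries and that of HSPD1 with quantile normalization. None of the 43 members tested was changed by limma, where 10.1% of 16503 genes were, and none with voom on the recovered reads. Without PUHr replicate 1 there was 1 changed member, DNAJB5, whose mean was 0.681 CPM in parental and 0.320 CPM in PUHr cells, a difference that the log2 CPM scale understates at this level. In all, 22 members passed an adjusted p of 0.05 (51.2%), 10 higher and 12 lower, against 51.4% of all genes (25.6% higher and 25.8% lower). Of the abundant members 21 of 36 passed (58.3%, against 62.9% of abundant genes), and the groups did not overlap for 25 members, 11 above and 14 below parental cells (58.1%, against 58.5% of all genes). The median of the members was -0.04, beside 0.00 over all tested genes. The direction of the small differences depended on the scaling, with 15 higher and 7 lower under quantile normalization and 7 higher and 18 lower under median centring.

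All 3 genes of the heat shock factor group were above parental cells in every PUHr library, where 58.5% of all tested genes had groups that did not overlap. HSF2 was at 41.3, 41.4 and 41.0 CPM in parental and 54.7, 54.1 and 52.0 CPM in PUHr cells. It rose by 0.38 (standard error 0.04, limma adjusted p = 9.2e-07), the largest rise among the members. HSF1 was at 101, 102 and 99.1 CPM in parental and 102, 121 and 109 CPM in PUHr cells, a rise of 0.14 (adjusted p = 0.024) that was lost without PUHr replicate 2, parental replicate 1 or parental replicate 3 (adjusted p up to 0.090) and was 0.07 without the first of these. HSBP1 rose by 0.16 (adjusted p = 0.00049).

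HSPA8 was at 2874, 2834 and 2832 CPM in parental and 2213, 2184 and 2134 CPM in PUHr cells. The groups did not overlap, and HSPA8 fell by 0.39 on the log2 scale (standard error 0.02, limma adjusted p = 4.0e-10), or by 0.14 with quantile normalization (adjusted p = 7.7e-06). HSPA4 was at -0.07 (adjusted p = 0.026), which turned to 0.02 with quantile normalization and was lost without single libraries (up to 0.12). HSPA9, HSPA4L, HSPA14 and HSPA6 did not pass the test. HSPA6 was counted with 15, 17 and 9 reads in parental and 12, 10 and 11 in PUHr cells (-0.28, adjusted p = 0.42), and HSPA1A with 8, 5 and 7 and with 8, 10 and 5 reads, too few to be tested. HSPA1B was listed at 0 reads in all 6 libraries, and 70.2% of its 76-base stretches occur elsewhere in the genome. HSPA2 had at most 3 reads, HSPA12A 4 to 6 reads in parental and 0 to 3 in PUHr cells, and HSPB8 0 to 3 and 3 to 5.

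Across the tables, which were normalized separately and were not compared by a test, mean HSPA8 was 791 CPM in EV and 2846 CPM in parental cells, DNAJA1 137 and 318, HSPH1 93.2 and 198, HSPE1 27.7 and 80.5, and TCP1 279 and 571. HSPA6 (16.9 and 0.590 CPM), CRYAB (5.39 and 1.24), HSPA1A (1.12 and 0.292) and DNAJB2 (17.6 and 7.82) stood the other way, and the means of the other members in both tables were within 2-fold of each other.

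HSPH1 was at 197, 201 and 196 CPM in parental and 198, 213 and 202 CPM in PUHr cells, which overlapped (0.04, adjusted p = 0.22). DNAJB1 was at 105, 106 and 103 CPM in parental and 113, 115 and 114 CPM in PUHr cells, a rise of 0.12 (limma adjusted p = 0.0020) with no overlap. DNAJA1 overlapped between the groups (0.01, adjusted p = 0.67), DNAJB6 (-0.18) and DNAJC2 (-0.12) fell, and DNAJB5, counted with 10, 23 and 14 reads in parental and 10, 8 and 5 in PUHr cells, was at -0.88 (adjusted p = 0.031, and 0.12 without PUHr replicate 3). HSPB1 was at 212, 206 and 203 CPM in parental and 247, 282 and 246 CPM in PUHr cells and rose by 0.32 (adjusted p = 1.9e-05). HSPB11 rose by 0.19, and CRYAB, with 20, 35 and 30 reads in parental and 27, 24 and 21 in PUHr cells, overlapped (-0.24, adjusted p = 0.40).

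BAG3 was at 53.0, 54.4 and 54.9 CPM in parental and 40.7, 40.4 and 39.1 CPM in PUHr cells. It fell by 0.43 on the log2 scale (standard error 0.04, limma adjusted p = 2.2e-07), while its 43 neighbours within 5 Mb had a median of 0.03. BAG4 was at 33.6, 31.5 and 32.6 CPM in parental and 36.4, 42.1 and 37.7 CPM in PUHr cells and rose by 0.25 (adjusted p = 0.0015). BAG1 rose by 0.17, BAG5 was at 0.09 (adjusted p = 0.049, up to 0.21 without single libraries) and BAG2 and BAG6 did not pass the test. The 73 neighbours of BAG5 on chromosome 14 had a median of 0.20 with quartiles of -0.07 and 0.39, which enclose the value of BAG5. ST13 was at 0.06 (adjusted p = 0.044, up to 0.15 without single libraries), and STUB1 and HSPBP1 did not pass.

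**Figure D3:**
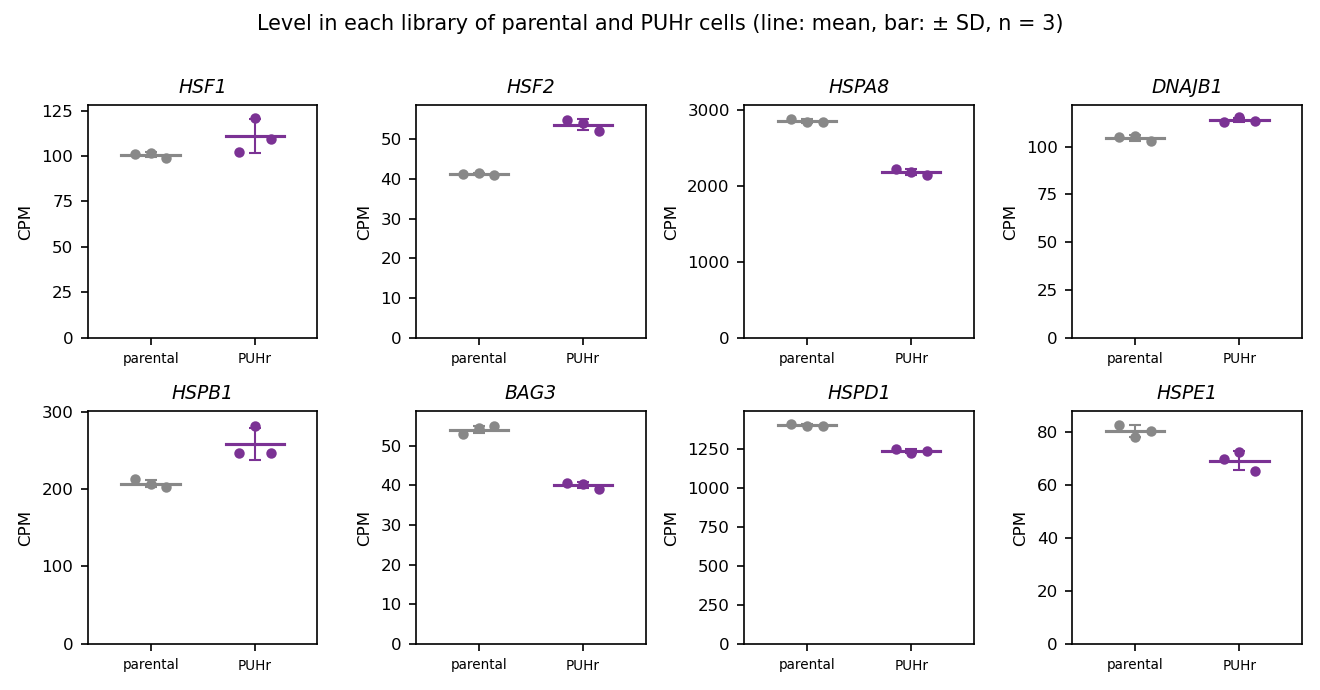
CPM of 8 members in each parental and PUHr library, with the mean as a line and the SD as a bar (n = 3 per group). HSF2, DNAJB1 and HSPB1 are higher and HSPA8, BAG3, HSPD1 and HSPE1 lower in every PUHr library than in any parental library.

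HSPD1 was at 1411, 1399 and 1400 CPM in parental and 1253, 1223 and 1236 CPM in PUHr cells, without overlap (-0.18, limma adjusted p = 1.2e-06, but -0.01 and 0.59 with quantile normalization). HSPE1 was at 82.9, 78.1 and 80.6 CPM in parental and 70.1, 72.4 and 65.5 CPM in PUHr cells, also without overlap (-0.22, adjusted p = 0.00039). Their 52 neighbours had a median of -0.09. Of the CCT subunits 4 passed the test (50%, against 62.9% of all abundant genes), all lower, CCT3 (-0.17, adjusted p = 9.8e-06), CCT7 (-0.10), TCP1 (-0.09) and CCT8 (-0.09), and with quantile normalization TCP1 and CCT8 turned to 0.00 and 0.03, while CCT2, at 0.00 in the deposited scaling, was at 0.07 (adjusted p = 0.0019). Of the 5 genes with the 3-unit element HSPA8, HSPD1 and DNAJB6 fell and DNAJA1 and HSPA6 did not pass the test. Among 40 tested genes with such a promoter that are no members, 10 were higher and 13 lower (25% and 32.5%), beside 27% and 29.2% of all tested genes with a promoter in the table, with a median of -0.02.

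Further genes of the same systems were counted in lists written by hand. Beside these counts stand the shares of all tested genes that passed the test, 27.5% higher and 26.6% lower in HSP90α-KO, 17.2% in each direction in HSP90β-KO, and 25.6% higher and 25.8% lower in PUHr. Of 30 other J-domain genes tested, 7 rose and 8 fell in HSP90α-KO and 8 rose and 2 fell in HSP90β-KO, and in PUHr 12 rose and 10 fell of 32 tested, where DNAJC15, a mitochondrial J-domain gene, was changed, at 1.31 CPM in parental cells and listed at 0 in PUHr, and DNAJC22, a membrane J-domain gene, rose by 0.78 and also by 2.70 in HSP90α-KO (0.794 CPM in EV and 5.62 CPM in the knockout). Of the other HSP70 genes, HSPA5 (BiP), the HSP70 of the endoplasmic reticulum, fell by 0.73 in HSP90α-KO (841 to 508 CPM, adjusted p = 9.2e-18) and by 0.33 in HSP90β-KO. In all 1 of 5 other HSP70 genes rose and 3 fell in HSP90α-KO, 3 fell in HSP90β-KO, and 2 of 4 fell in PUHr. The rise was that of HSPA7, a close copy of HSPA6 (1.08, adjusted p = 0.040), at 0.2635 CPM in EV and 0.600 CPM in HSP90α-KO, beyond 2-fold. Of 15 other genes of the heat shock response, 5 rose and 5 fell in HSP90α-KO, 6 rose and 2 fell in HSP90β-KO and 2 rose and 8 fell in PUHr. The largest falls of this list were those of the targeted genes, HSP90AA1 in HSP90α-KO (-2.96) and HSP90AB1 in HSP90β-KO (-0.55), and of HSP90AB1 in PUHr (-0.24). The largest rises were those of IER5, which assists HSF1, in HSP90α-KO (0.28) and PUHr (0.24) and of HSP90AA1 in HSP90β-KO (0.78). Of 12 other mitochondrial chaperones and proteases, 8 rose in HSP90α-KO, led by the disaggregase CLPB (0.70), 1 rose and 3 fell in HSP90β-KO and 1 rose and 7 fell in PUHr, where GRPEL1, the exchange factor of HSPA9, was at -0.35. Of 16 entries for 15 symbols of prefoldin subunits and other CCT partners, among which TBCE has 2 entries, 5 rose and 4 fell in HSP90α-KO, 3 rose and 4 fell in HSP90β-KO and 1 rose and 3 fell in PUHr. Of 2 other small heat shock protein genes tested in the knockout table, both fell in HSP90α-KO, with HSPB3 at -1.63, neither passed in HSP90β-KO, and HSPB3 fell in PUHr (-1.70). Of the other heat shock factor and factor-binding genes 2 were tested in the knockout table. Both fell in HSP90α-KO, with HSBP1L1, a relative of HSBP1, at -0.77, and neither passed in HSP90β-KO. In PUHr none of 2 tested passed.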

How the data were processed

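RNA of K562 cells was measured in 15 libraries, 3 per group. Per the study's methods and the submitters' processing notes, single-end reads were checked with FastQC and MultiQC, trimmed, aligned with STAR to GRCh38 (hg38) and counted per gene with featureCounts. The libraries were made with a stranded kit, but the settings of the counting for strand and for reads that map to several places are not given in the sources used here. The authors deposited log2 CPM values from edgeR, in 2 tables normalized separately. Whole reads could be recovered from them for 100% of the values, within 0.01 of a whole number. The CPM values in the text were computed from these reads and the normalized library sizes. Library totals ran from 19594381 to 26216730 reads, and rows without a gene identifier, with 0.027% to 0.036% of the reads, were left out. Genes with a log2 CPM of at least -1 in 3 or more libraries were tested on the deposited log2 CPM with limma 3.58.1 (lmFit with one mean per group, eBayes with an intensity trend) in R 4.3.3, separately for each table. Fold changes are on that scale, which understates those of low genes. P-values were adjusted over all tested genes by Benjamini-Hochberg. Both knockouts are set against the same EV libraries. The test was tried on simulated data. The members and gene lists were chosen with earlier results of these data known. Values in every library are given for a preset set of members, for any member changed, and for the 3 largest rises and falls among members past the test against each control, and for a few more of interest chosen after their values were seen. Of the other lists at most the largest rise and fall are named. Samples with the same replicate number did not deviate together (correlations -0.0481 to 0.0449). Alternatives were other filters, pseudocounts, scalings, voom on the recovered reads, a replicate block and leaving out each library.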

Additional observations from a re-analysis of the deposited data

How the results depend on the processing

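No paired design was found, and with the replicate number as a block 30 members passed the test in HSP90α-KO, 25 in HSP90β-KO, 31 between the knockouts and 22 in PUHr, against 32, 27, 31 and 22 without it. Members changed fell from 2 to 1 in HSP90α-KO when genes averaging under 1 log2 CPM were dropped or a 1 CPM pseudocount was used and to 0 with 5 CPM, from 3 to 1 in HSP90β-KO with a 1 or 5 CPM pseudocount, and from 3 to 1 and 0 between the knockouts at the same settings as in HSP90α-KO. Leaving out single libraries gave 2 in HSP90α-KO, 3 in HSP90β-KO, 2 to 3 between the knockouts and 0 to 1 in PUHr (1 without PUHr replicate 1). Members past the test were then 27 to 31, 24 to 29, 29 to 33 and 18 to 28. In PUHr they were 10 with no filter on low values and 13 without an intensity trend. The median of the members was 0.0062 (HSP90α-KO), 0.0219 (between the knockouts) and 0.0201 (PUHr) with quantile normalization, and 0.0130 (HSP90β-KO), 0.12 (between the knockouts) and -0.0861 (PUHr) with median centring. Without single libraries it was 0.0330 to 0.0628 in HSP90β-KO and -0.0543 to 0.0039 in PUHr. Members past the test under median centring were 10 higher and 14 lower in HSP90β-KO, and between the knockouts 15 higher and 17 lower with quantile normalization. With quantile normalization CCT3 (-0.0416), CCT4 (-0.0011), CCT5 (-0.0045) and CCT6A (-0.0093) turned in HSP90α-KO, CCT3 (-0.11) between the knockouts, and HSPA4 (0.0201), TCP1 (0.0017), CCT2 (0.0720) and CCT8 (0.0299) in PUHr. The cause was not tested. Of the calls, 19 of 32 in HSP90α-KO, 21 of 27 in HSP90β-KO, 25 of 31 between the knockouts and 8 of 22 in PUHr held under every setting and without each library. Counts of HSPA1A and DNAJB5, with at most 29 reads in a library, limit their precision.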
